A study of Rattus norvegicus with 6 samples.

Results

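The nuclear genes for the machinery of oxidative phosphorylation were examined in neurons from the dorsal root ganglia (DRGs) L1 and L2 of the spontaneously hypertensive rat (SHR). Members were the protein-coding rows of the count table whose names begin as the subunits of respiratory complexes I to IV or of the ATP synthase do (Nduf with a, b, c, s or v and a digit, Sdha to Sdhd, Uqcr, Cyc1, Cox4 to Cox8 with a letter a to c, and Atp5), and genes of the mitochondrial genome (mt-). The rule took 85 of 25689 rows, with 81 different names, and all 85 were nuclear. No row of the mitochondrial genome matched, so the subunits encoded there were not analysed here. By complex, 36 members belonged to complex I, 4 to complex II, 10 to complex III, 18 to complex IV and 17 to complex V. Ndufa4 and its relative Ndufa4l2 were counted in complex IV, where the Ndufa4 protein is found, although they carry a complex I name.

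All rats were SHRs of wild type genotype, and the groups differed in the operation, which was surgical removal of the perirenal adipose tissue (PRATA) in 3 samples and a sham operation in 3 samples. SHRs are an inbred model of primary hypertension, and the L1-L2 DRGs hold sensory neurons whose fibres reach the perirenal fat. The study's methods place the collection 4 weeks after the operation, while the labels give an age of 6 to 8 weeks for every sample and the methods a greater age at purchase. Nothing in the labels says whether a sample was 1 animal or a pool, so p-values measure the spread between these samples, which may be technical. Ganglia were digested and neurons were separated from glia by their slower attachment to the dish, which leaves other cells in the preparation. The comparison asks whether the expression of the respiratory machinery in these neurons differed after PRATA.

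Oxidative phosphorylation makes most of the ATP of a neuron. Complexes I and II feed electrons from NADH and succinate into the inner mitochondrial membrane, complex III passes them to cytochrome c and complex IV to oxygen, while complexes I, III and IV pump the protons that drive the ATP synthase, complex V. Most subunits are encoded in the nucleus and a few in the mitochondrial genome, and sensory neurons, whose long axons must be kept charged far from the cell body, depend heavily on this supply.

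Values are CPM, counts brought to a common library size by TMM, the edgeR method for making libraries comparable, and means are given with their SD. PRATA and sham were compared by the two-sided quasi-likelihood test of edgeR, and p-values were adjusted by Benjamini-Hochberg over the 14919 genes that passed its filter on low counts. Total counts lay between 5892967 and 15226952 per sample, and 3 counts, taken as the floor, stand for 0.197 to 0.509 CPM. This floor covers counting error alone. PRATA replicate 3 and sham replicate 1 stood apart from the other 4 samples. In these 2 samples the 7SL RNA gene Rn7sl1 took 5.40% and 5.63% of all counts, against 1.25% to 1.52% elsewhere, and another 7SL copy took almost none. All 18 sensory neuron markers were detected, with summed levels between 10390 and 22719 CPM, and satellite glial markers were present too, with sums between 3430 and 8988 CPM.

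The respiratory genes were, on balance, slightly higher after PRATA, but no gene of the group passed the test. Of the 79 members tested, 70 had a positive log2 fold change and 9 a negative one, with a median of 0.18, where over all genes tested the median was 0.02 and 52.0% were positive. With library size alone in place of TMM, 62 members were positive and 17 negative. No member had an adjusted p under 0.05 in edgeR (smallest adjusted p = 0.255), and 0% of all genes did. At an unadjusted p under 0.05, edgeR placed 2 members higher and 0 lower, beside 8.19% of all genes tested higher and 10.1% lower. The 3 PRATA samples all lay above the 3 sham samples for 3 members and below them for 0, beside 11.6% and 11.2% of all genes tested. By the unadjusted p and by overlap the share of members called was below the background, and the common direction rested on small differences, with log2 fold changes between -0.14 and 1.55. The standard error had a median of 0.22, and for 65 of the 79 members the 95% interval of the log2 fold change lay wholly between -1 and 1.

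Other analyses called many genes, and none of them called a member at an adjusted p under 0.05. DESeq2 called 5.43% of the 12188 genes to which it gave an adjusted p, limma voom with sample quality weights called 7.86% of all genes tested, and edgeR without sham replicate 2 called 4.67%. At an unadjusted p under 0.05, voom placed 12 members higher, beside 15.6% of all genes, and edgeR without sham replicate 2 placed 14 members higher, beside 13.4% of all genes.

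The members moved together from sample to sample. As the median deviation from each gene's own mean on the scale of log2(CPM + 0.5), the members lay at 0.26, -0.15 and 0.18 in PRATA 1 to 3 and at -0.41, 0.15 and -0.03 in sham 1 to 3. Sham replicate 1 was therefore low across the board, and PRATA replicate 2 lay below sham replicates 2 and 3. The mean of these sample medians was 0.19 higher after PRATA, while the sham samples spanned 0.56 among themselves and the PRATA samples 0.41. Sham replicate 1 was the lowest of the 6 samples for 62 of the 79 members and for 23.1% of all genes tested. The highest sample was PRATA replicate 1 for 32 members, PRATA replicate 3 for 26 and sham replicate 2 for 19.

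**Figure D1:**
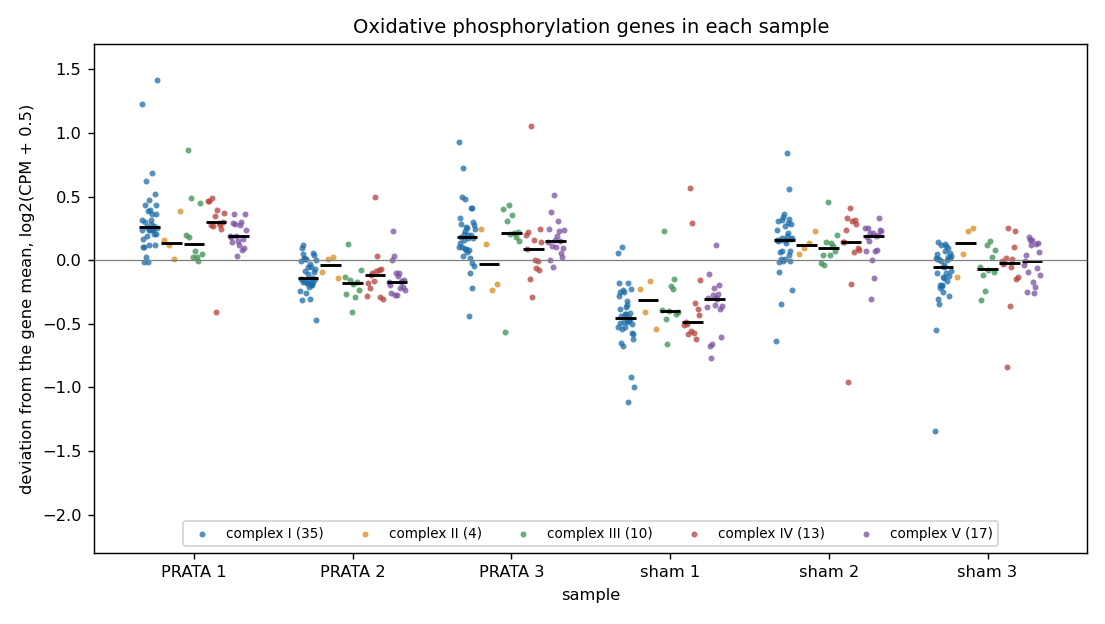
Deviation of each of the 79 tested members from its own mean over the 6 samples, on the scale of log2(CPM + 0.5), by sample and by complex. Each point is a gene and each black bar the median of a complex, and the low position of sham replicate 1, at a median of -0.41 over all members, is common to the 5 complexes.

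Without sham replicate 1, 42 of the 79 members were positive and the median log2 fold change was 0.03. Without PRATA replicate 1 the median was 0.06, and without sham replicate 2 it was 0.33 with 78 members positive. Within the 4 samples that did not stand apart by their 7SL copy, 2 per group, 40 of the 78 members tested were positive, with a median of 0.02. The slight excess after PRATA was thus not seen in the samples that remain when sham replicate 1 is left out. As a share of all counts, the members together took 0.511%, 0.425% and 0.494% in PRATA 1 to 3 and 0.322%, 0.557% and 0.447% in sham 1 to 3, with overlapping groups.

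The sample lowest in respiratory transcripts was also the lowest in neuron markers. The summed level of the 85 members was 5365, 4135 and 5032 CPM in PRATA 1 to 3 and 3393, 5121 and 4520 CPM in sham 1 to 3. The summed level of the 18 sensory neuron markers was 21735, 14798 and 22719 CPM in the same PRATA samples and 10390, 15841 and 12760 CPM in the same sham samples. All 18 markers had a positive log2 fold change, with a median of 0.47. At an unadjusted p under 0.05 (edgeR) 4 of them were higher, beside 8.19% of all genes tested, and none passed an adjusted p under 0.05. The 10 satellite glial markers ran the other way, with sums of 4032, 6504 and 3430 CPM after PRATA and 7902, 4616 and 8988 CPM after the sham operation. All 10 had a negative log2 fold change, 2 of them at an unadjusted p under 0.05 (edgeR), beside 10.1% of all genes tested lower.

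Set against the neuron markers of the same sample, a comparison chosen after the values were seen, the order of the groups turned. The members amounted to 24.7%, 27.9% and 22.2% of the summed neuron marker level in PRATA 1 to 3 and to 32.7%, 32.3% and 35.4% in sham 1 to 3. In this ratio the PRATA samples all lay below the sham samples. The same held for each of the 5 complexes taken alone, which were all divided by the same marker sum. It also held for the list of mitochondrial genome expression described below, at 3.03%, 3.81% and 2.85% against 6.30%, 4.34% and 6.09%. The list of biogenesis regulators overlapped between the groups in this ratio. The share of all genes that would not overlap in such a ratio was not computed. The markers include Calca, which the paper reports as upregulated after PRATA in these neurons, and Trpv1. For TRPV1 the paper reports lower expression in L1-L2 DRGs after PRATA, and its methods name an antibody against TRPV1 for staining. In the RNA counts used here both genes, like all 18 markers, had a positive log2 fold change. The ratio reads the markers as much as the members, since the marker sum averaged 19751 CPM in the PRATA and 12997 CPM in the sham samples and the member sum 4844 and 4344 CPM. In bulk RNA, fewer cells of a type and less RNA per cell cannot be told apart, and the part of the cell mixture in the member levels was not tested.

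**Figure D2:**
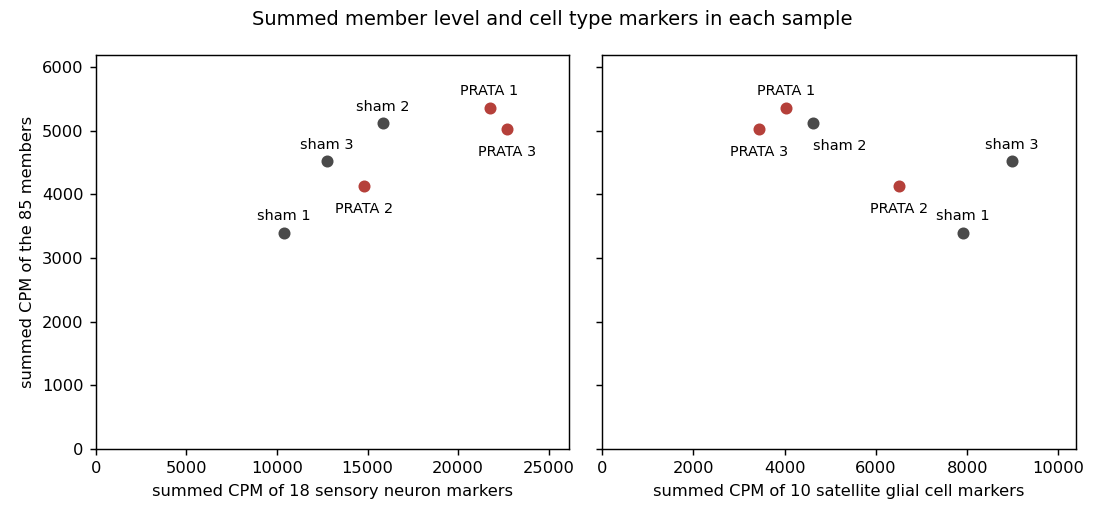
Summed CPM of the 85 members against the summed CPM of 18 sensory neuron markers (left) and of 10 satellite glial cell markers (right), with 1 point per sample and PRATA in red. Sham replicate 1, at 3393 CPM of member transcripts, is also the sample lowest in neuron markers, at 10390 CPM.

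Markers of other cell types varied between samples as well. Summed Schwann cell markers lay between 778 and 1395 CPM after PRATA and between 585 and 782 CPM after the sham operation, and 3 of 10 were higher at an unadjusted p under 0.05 in edgeR. Fibroblast markers lay between 1183 and 3485 CPM after PRATA and between 2183 and 3113 CPM after the sham operation, with 1 of 9 lower at that p. Macrophage markers lay between 38.3 and 175 CPM after PRATA and between 43.1 and 113 CPM after the sham operation, with 0 of 10 past that p, and endothelial markers between 86.5 and 194 and between 41.6 and 222 CPM, with 1 of 9 higher. Red blood cell markers ran from 7.49 to 1046 CPM after PRATA and from 3.59 to 247 CPM after the sham operation, with 0 of 5 past that p. Over all genes tested, 8.19% were higher and 10.1% lower at that p (edgeR). The median log2 fold change was 0.97 for the Schwann cell markers, with 9 of 10 positive, above that of the neuron markers. It was -0.52 for the fibroblast, 0.70 for the macrophage, 0.28 for the endothelial and 1.34 for the red blood cell markers. No marker of any of these lists was at 0 in all 6 samples, and their part in the member levels was not tested.

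The promoters of the members have sequence features that the naming rule did not use. Nuclear respiratory genes are known targets of the transcription factors NRF1, GABPA (also called NRF2), YY1 and the oestrogen-related receptors (ERR). In the RefSeq promoter table of the assembly GRCr8, 69 of the 81 member names had an entry of 300 bases, 250 before and 50 after the annotated start. Searched on both strands, the letters CGGAAG, the core of a GABPA site, were held by 49.3% of the member promoters and 16.6% of all 33469 promoters. The letters AAGATGGC of a YY1 site were held by 21.7% and 3.17%, GCGCATGC of an NRF1 site by 11.6% and 2.47%, and AAGGTCA of an ERR site by 14.5% and 4.61%. The letters TATAAA were held by 8.70% of the member promoters and 14.2% of all promoters. All members are protein-coding, and among the 21842 promoters of protein-coding genes the shares were 19.8% for GABPA, 3.68% for YY1, 3.11% for NRF1, 3.78% for ERR and 13.0% for TATAAA. A GABPA match can share the letters AAG with a YY1 or ERR match, and each was then counted. The GABPA letters are shorter than those of the other factors, so the shares of different factors are not like for like. A match is a description of the sequence, not a measured binding site. Members with a GABPA match had a median log2 fold change of 0.18 (34 tested) and those without one 0.16 (29 tested), and the values for NRF1 were 0.17 (8 tested) and 0.18 (55 tested). For YY1 they were 0.26 (14 tested) and 0.15 (49 tested), and for ERR 0.12 (10 tested) and 0.18 (53 tested), differences that were not tested.

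Stretches of 4 such promoters, from 150 bases before the annotated start to 30 bases after it, are printed 5′ to 3′ on the strand of the gene to show where these letters lie relative to the start, with matches in capitals. Uqcrc1 (chr8:118468073-118468252, plus strand), Ndufa6 (chr7:115750288-115750467, minus strand) and Cox8a (chr1:213833594-213833773, minus strand) are among the 5 members that hold 3 of the 4 factor motifs in the 300 bases, and Ndufa1 (chrX:121293526-121293705, minus strand), the member with the highest log2 fold change, holds GABPA letters alone. In the Uqcrc1 stretch the capitals mark, in order, the NRF1, GABPA and YY1 letters, and in that of Ndufa6 the NRF1 and YY1 letters, its GABPA match lying further upstream. In that of Cox8a they mark a pair of GABPA matches, then YY1 and ERR.
Uqcrc1: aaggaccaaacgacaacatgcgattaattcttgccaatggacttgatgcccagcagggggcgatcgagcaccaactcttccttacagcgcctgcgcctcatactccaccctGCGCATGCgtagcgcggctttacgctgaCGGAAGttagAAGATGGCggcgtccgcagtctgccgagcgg
Ndufa6: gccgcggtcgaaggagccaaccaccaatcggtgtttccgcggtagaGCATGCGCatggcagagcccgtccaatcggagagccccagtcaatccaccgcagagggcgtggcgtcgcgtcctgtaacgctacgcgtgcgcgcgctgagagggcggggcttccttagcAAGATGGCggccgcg
Cox8a: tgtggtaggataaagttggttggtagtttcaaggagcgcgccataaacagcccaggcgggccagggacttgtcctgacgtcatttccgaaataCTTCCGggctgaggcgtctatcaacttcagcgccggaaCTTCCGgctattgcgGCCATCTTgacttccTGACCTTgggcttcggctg
Ndufa1: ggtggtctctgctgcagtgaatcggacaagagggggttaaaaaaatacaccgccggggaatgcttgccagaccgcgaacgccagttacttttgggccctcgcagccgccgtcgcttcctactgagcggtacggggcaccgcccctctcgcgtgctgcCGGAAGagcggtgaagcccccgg

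Complex I is the NADH dehydrogenase, the entry point of most electrons. Of its 35 members tested, 34 had a positive log2 fold change, with a median of 0.24. This median was 0.07 without sham replicate 1, 0.13 without PRATA replicate 1, 0.42 without sham replicate 2 and 0.06 within the 4 samples that did not stand apart by their 7SL copy. The median was 0.19 over the 7 core subunits encoded in the nucleus, which hold the flavin and the iron-sulphur clusters. It was 0.25 over the 28 rows of accessory subunits, where the name Ndufv3 stands on a pair of rows. Ndufa1 (ENSRNOG00000040005), a small accessory subunit of the membrane arm, was at 5.29, 1.59 and 4.19 CPM in PRATA 1 to 3 and at 2.07, 1.09 and 0.472 CPM in sham 1 to 3. The groups overlapped, since PRATA replicate 2 lay below sham replicate 1, and the raw counts were few, between 5 and 53. Its log2 fold change was 1.55 (SE 0.64, edgeR unadjusted p = 0.0414 and adjusted p = 0.255), the highest among the members.

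Ndufs8 (ENSRNOG00000017446), a core subunit that carries iron-sulphur clusters, was at 20.3, 16.2 and 19.5 CPM in PRATA 1 to 3 and at 10.4, 15.6 and 14.4 CPM in sham 1 to 3. All PRATA samples lay above all sham samples, and the log2 fold change was 0.48 (SE 0.22, edgeR adjusted p = 0.298). Ndufa3, an accessory subunit named here after its values were seen, was the other member of complex I whose groups did not overlap, with 6.95 ± 1.32 CPM in the PRATA and 4.98 ± 0.43 CPM in the sham samples (SD, n = 3 each). Ndufa8 (ENSRNOG00000005668), an accessory subunit on the side of the intermembrane space, was at 73.1, 44.6 and 54.6 CPM after PRATA and at 32.4, 47.6 and 40.5 CPM after the sham operation, with overlapping groups and a log2 fold change of 0.52 (SE 0.24, edgeR adjusted p = 0.290). Ndufa12, an accessory subunit that joins late in assembly, was the only tested member of the complex with a negative log2 fold change, at -0.05 (95% interval -0.55 to 0.44).

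Complex II, succinate dehydrogenase, is the only complex of the chain whose subunits are all nuclear, and its 4 genes had the lowest median of the 5 complexes, 0.09. Sdha, the flavoprotein that oxidizes succinate, was at 173, 145 and 184 CPM in PRATA 1 to 3 and at 133, 160 and 141 CPM in sham 1 to 3. Its groups overlapped, and the log2 fold change was 0.21 (95% interval -0.19 to 0.60). The iron-sulphur subunit Sdhb had a log2 fold change of 0.16 (95% interval -0.26 to 0.58), and the membrane anchor Sdhc had -0.14 (95% interval -0.55 to 0.27). The other anchor, Sdhd, had 0.02 (95% interval -0.60 to 0.65), which turned to -0.0030 with DESeq2 size factors and to -0.029 with library size alone. All 4 intervals thus lay between -0.60 and 0.65.

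In complex III, the cytochrome bc1 complex, 8 of 10 members were positive, with a median of 0.16. Uqcr11 (ENSRNOG00000016952), a small subunit of the complex, was at 32.01, 30.8 and 34.9 CPM in PRATA 1 to 3 and at 20.2, 27.5 and 25.9 CPM in sham 1 to 3. It was the only member of the complex whose groups did not overlap, with a log2 fold change of 0.41 (SE 0.18, edgeR unadjusted p = 0.0498 and adjusted p = 0.272). Cyc1, the haem-bearing cytochrome c1, was at 49.6, 39.3 and 57.1 CPM after PRATA and at 32.8, 42.5 and 41.6 CPM after the sham operation, with overlapping groups. Uqcrc1, a core protein on the matrix side whose promoter is shown above, had a log2 fold change of 0.18 (95% interval -0.25 to 0.61). The name Uqcrb stands on a pair of rows, ENSRNOG00000024967 with a log2 fold change of 0.51 and ENSRNOG00000032204 with -0.14, and since near-identical copies can share reads, the split between them is uncertain.

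In complex IV, cytochrome c oxidase, 13 of 18 members passed the filter and 11 of these were positive, with a median of 0.18 and with overlapping groups for all 13. Cox8a, whose protein is the general form of subunit VIII, was at 85.3, 66.2 and 82.5 CPM in PRATA 1 to 3 and at 51.4, 74.3 and 62.5 CPM in sham 1 to 3. The log2 fold change was 0.32 (SE 0.19, edgeR adjusted p = 0.414). Cox6a1, the general form of subunit VIa and the member of the complex with the most reads, had 0.18 (95% interval -0.36 to 0.71), and Cox5b, which binds zinc, had 0.25 (95% interval -0.29 to 0.78). Cox7a2l, which takes part in joining complexes III and IV, had 0.19 and Cox7b 0.09, while Cox6c was lower, at -0.10 (95% interval -0.75 to 0.56). Ndufa4 had 0.16 (95% interval -0.32 to 0.65). Of the pair of Cox6b1 rows, ENSRNOG00000024309 carried most reads, at 33.5 ± 8.98 CPM in the PRATA and 30.5 ± 9.31 CPM in the sham samples (SD, n = 3 each), and ENSRNOG00000034161 averaged 3.85 and 2.13 CPM, a split that is uncertain for the same reason as that of Uqcrb.

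Most tissue-specific forms of complex IV subunits had few counts in both groups. Cox6a2 and Cox8b, the heart and skeletal muscle forms, had 1 count in 1 of 6 samples each. Cox6b2, a testis form, had at most 4 counts in any sample, and Ndufa4l2, a paralog of Ndufa4 known to be induced by low oxygen, had between 1 and 12 counts. Cox7a1, the muscle form of subunit VIIa, was above the floor in all 6 samples, at 2.85 ± 1.01 CPM in the PRATA and 2.44 ± 0.71 CPM in the sham samples (SD, n = 3 each). Cox6a2, Cox8b, Cox6b2 and Ndufa4l2, together with Cox6c-ps1 and the second Ndufa10l1 row (ENSRNOG00000062245), are the 6 members that the filter on low counts removed. Without the filter, these 6 had an unadjusted p between 0.142 and 0.662 (edgeR).

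All 17 members of complex V, the ATP synthase, were tested, 14 were positive and the median was 0.15. They include Atp5if1, the inhibitory factor of the synthase rather than a subunit, which was taken by its name. Atp5f1b, the catalytic beta subunit, was at 576, 443 and 601 CPM in PRATA 1 to 3 and at 414, 534 and 507 CPM in sham 1 to 3. The groups overlapped, and the log2 fold change was 0.15 (95% interval -0.34 to 0.65). The small subunits of the central stalk had the highest values, with 0.44 (SE 0.25, edgeR adjusted p = 0.376) for Atp5f1e, the epsilon subunit, and 0.41 (SE 0.25, edgeR adjusted p = 0.414) for Atp5f1d, the delta subunit. Atp5f1e was at 35.8, 32.7 and 30.05 CPM after PRATA and at 16.1, 30.9 and 26.0 CPM after the sham operation, so that its difference came mainly from sham replicate 1. Subunit e (Atp5me), in the membrane, had 0.33, and subunit d of the peripheral stalk (Atp5pd) had -0.08, the lowest of the complex. The proton-carrying c ring is built from 1 mature protein encoded by 3 genes, and Atp5mc1 had 0.31 (95% interval -0.31 to 0.93), Atp5mc2 0.06 (95% interval -0.38 to 0.50) and Atp5mc3 -0.02 (95% interval -0.51 to 0.46).

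**Figure D3:**
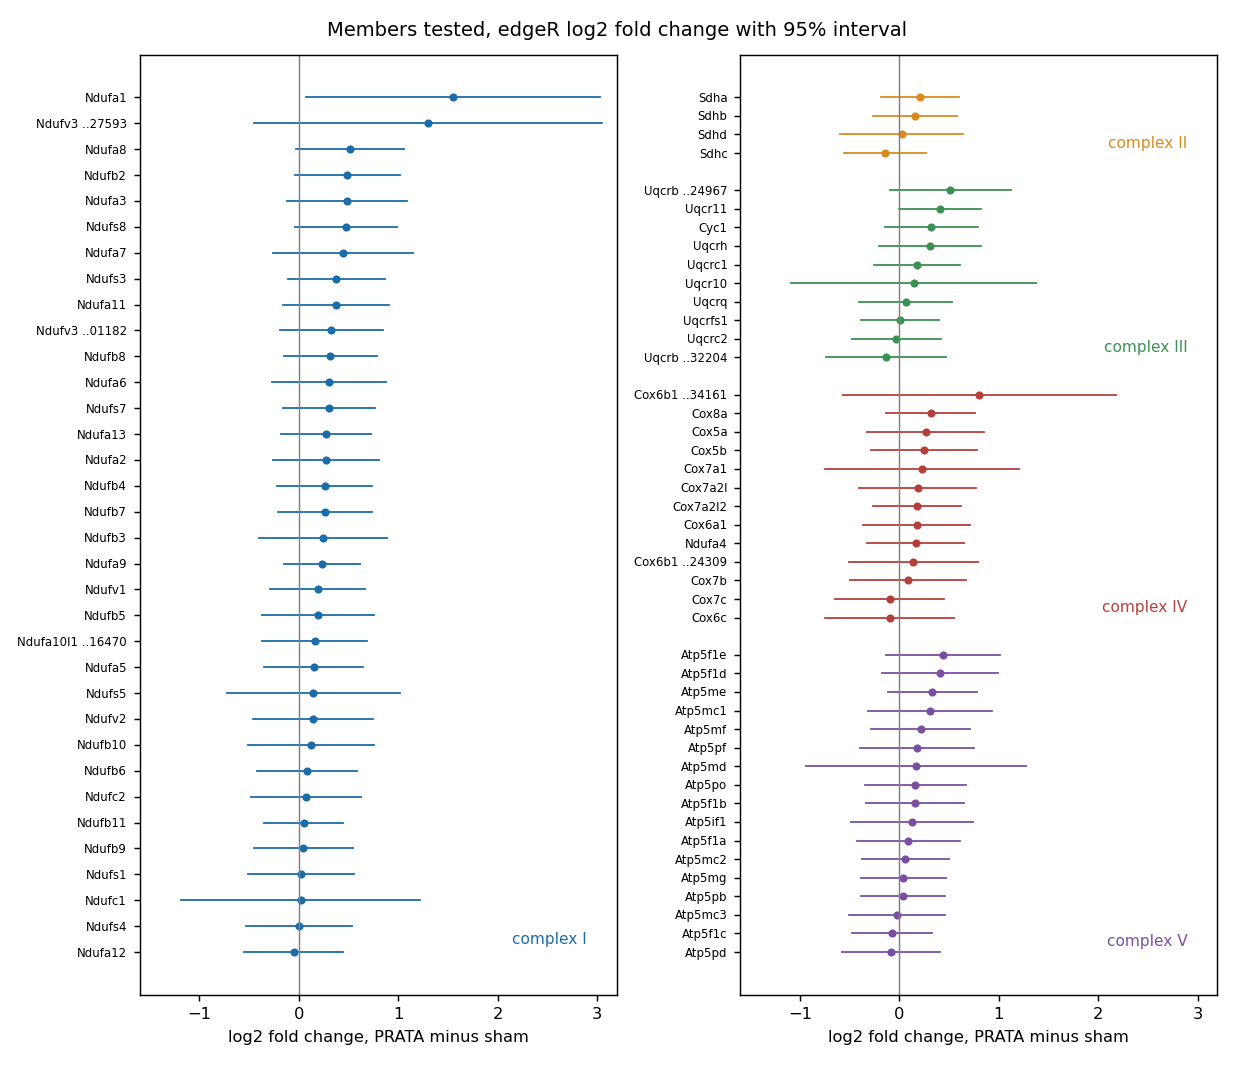
Log2 fold change (PRATA minus sham, edgeR) of 78 of the 79 tested members with its 95% interval, by complex, where rows that share a name carry the last digits of their Ensembl identifier. Points lie mostly just right of 0, and the intervals of all members shown except Ndufa1 and Uqcr11 include 0.

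The genes that build, feed and regulate the respiratory chain were taken from 6 lists. Of 42 assembly factors tested, 25 were positive, with a median log2 fold change of 0.09. At an unadjusted p under 0.05 (edgeR) 1 was higher and 1 lower, beside 8.19% and 10.1% of all genes tested. Ndufaf4, which is needed to assemble complex I, was at 25.3, 25.8 and 24.0 CPM in PRATA 1 to 3 and at 43.6, 34.8 and 52.0 CPM in sham 1 to 3. All PRATA samples lay below all sham samples, and the log2 fold change was -0.80 (SE 0.19, edgeR adjusted p = 0.156), which passed the adjusted p under DESeq2 (adjusted p = 0.0289), voom with quality weights (adjusted p = 0.0330) and edgeR without sham replicate 2 (adjusted p = 0.0367), in a range from 0.0289 to 0.550 over the alternatives. In the fit over all 6 samples its direction was thus opposite to that of most complex I subunits, whose median was 0.07 without sham replicate 1. Cox14 and Coa3, which act early in the assembly of complex IV, had 1.47 (SE 0.54, edgeR adjusted p = 0.225) and 0.37 (SE 0.18, edgeR adjusted p = 0.313), Cox14 at no more than 1.81 CPM in any sample.

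The 7 carriers and subunits that the naming rule does not take had a median of 0.10, with 0 past an unadjusted p under 0.05 in edgeR. They include Cox4i1, a main regulatory subunit of complex IV, at 0.16 (95% interval -0.37 to 0.68), its lung form Cox4i2 at -0.38 (95% interval -1.62 to 0.87) and the complex I subunit and acyl carrier protein Ndufab1 at 0.19 (95% interval -0.29 to 0.68). Among 17 genes of pyruvate dehydrogenase and the citric acid cycle the median was 0.11, with 12 positive. At an unadjusted p under 0.05 (edgeR) 1 was lower, beside 10.1% of all genes tested. This gene, Suclg2, a subunit of the GTP-forming succinyl-CoA ligase, was at 6.58, 13.0 and 9.17 CPM after PRATA and at 18.6, 13.9 and 23.0 CPM after the sham operation, with no overlap and a log2 fold change of -0.95 (SE 0.30, edgeR adjusted p = 0.190), and it passed under voom with quality weights (adjusted p = 0.0408, the smallest over the alternatives, with 0.551 the largest). Dld and Dlst, subunits of the alpha-ketoglutarate dehydrogenase, had -0.36 and -0.27, with overlapping groups.

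Of 10 genes for exchange across the mitochondrial membranes and for phosphocreatine, 6 were positive, with a median of 0.11. At an unadjusted p under 0.05 (edgeR) 1 was higher and 1 lower, beside 8.19% and 10.1% of all genes tested. Slc25a5, an ADP/ATP carrier of dividing cells, was at 110, 99.0 and 130 CPM in PRATA 1 to 3 and at 172, 131 and 159 CPM in sham 1 to 3, a log2 fold change of -0.45 (SE 0.18, edgeR adjusted p = 0.249). The creatine kinases Ckb, of the cytosol, and Ckmt1, of mitochondria, had 0.49 (SE 0.21, edgeR adjusted p = 0.270) and 0.56 (SE 0.31, edgeR adjusted p = 0.365), with overlapping groups.

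The lists of regulators and of mitochondrial gene expression had medians below 0. Of 10 regulators of mitochondrial biogenesis, 8 had a negative log2 fold change, with a median of -0.50, and 2 were lower at an unadjusted p under 0.05 (edgeR), beside 10.1% of all genes tested. Gabpa, the DNA-binding subunit of a factor whose letters were searched in the member promoters, was at 41.0, 40.4 and 36.5 CPM in PRATA 1 to 3 and at 60.9, 47.9 and 70.6 CPM in sham 1 to 3. The groups did not overlap, and the log2 fold change was -0.61 (SE 0.19, edgeR adjusted p = 0.185), with an adjusted p between 0.0434, under voom with quality weights, and 0.550 over the alternatives. Its partner Gabpb1 had -0.53 (SE 0.25, edgeR adjusted p = 0.296). Nrf1 was at 18.6, 23.9 and 23.8 CPM after PRATA and at 43.4, 23.7 and 33.6 CPM after the sham operation, overlapping by sham replicate 2, and its log2 fold change was -0.61 (SE 0.24, edgeR adjusted p = 0.245). The 2 regulators with a positive log2 fold change, named here after their values were seen, were the coactivators Ppargc1a, at 0.57 (SE 0.32, edgeR adjusted p = 0.376), and Ppargc1b, at 0.32. Ppargc1a, known as a driver of mitochondrial biogenesis, was at 21.7, 19.7 and 20.01 CPM in PRATA 1 to 3 and at 21.5, 9.68 and 9.63 CPM in sham 1 to 3, so that sham replicate 1 overlapped the PRATA samples.

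Of 35 genes for replication and expression of the mitochondrial genome, 25 had a negative log2 fold change, with a median of -0.15, and 5 were lower and 0 higher at an unadjusted p under 0.05 (edgeR), beside 10.1% and 8.19% of all genes tested. All PRATA samples lay below all sham samples for 9 of the 35 and above for 1, beside 11.2% and 11.6% of all genes tested. Tfam (ENSRNOG00000000613), which packs mitochondrial DNA and starts its transcription, was at 11.4, 13.5 and 12.9 CPM in PRATA 1 to 3 and at 28.3, 21.5 and 33.2 CPM in sham 1 to 3. The highest PRATA sample lay well below the lowest sham sample, and the log2 fold change was -1.14 (SE 0.21, edgeR unadjusted p = 0.000627 and adjusted p = 0.156). Tfam passed the adjusted p under DESeq2 (adjusted p = 0.00446), under voom with quality weights (adjusted p = 0.0315) and in edgeR without sham replicate 2 (adjusted p = 0.0291), and its log2 fold change lay between -1.28 and -0.98 and its adjusted p between 0.00446 and 0.550 over the 18 alternatives. Mterf3, a repressor of mitochondrial transcription that also acts on the mitochondrial ribosome, was at 6.58, 6.37 and 5.93 CPM after PRATA and at 10.02, 10.5 and 16.6 CPM after the sham operation, and Mtpap, which adds poly(A) tails to mitochondrial transcripts, was at 11.5, 10.1 and 12.3 CPM and at 22.7, 14.8 and 19.2 CPM. Neither overlapped between the groups, with log2 fold changes of -0.98 (SE 0.27, edgeR adjusted p = 0.168) and -0.75 (SE 0.22, edgeR adjusted p = 0.175) and with adjusted p of 0.0422 and 0.0447 under voom with quality weights, the smallest over the alternatives, where the largest were 0.550 and 0.550. The other 2 at an unadjusted p under 0.05, named after their values were seen, were Trmt10c, which methylates mitochondrial tRNAs, at -0.66 (SE 0.20, edgeR adjusted p = 0.178), and Ptcd3, a protein of the mitochondrial ribosome, at -0.62 (SE 0.18, edgeR adjusted p = 0.175).

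**Figure D4:**
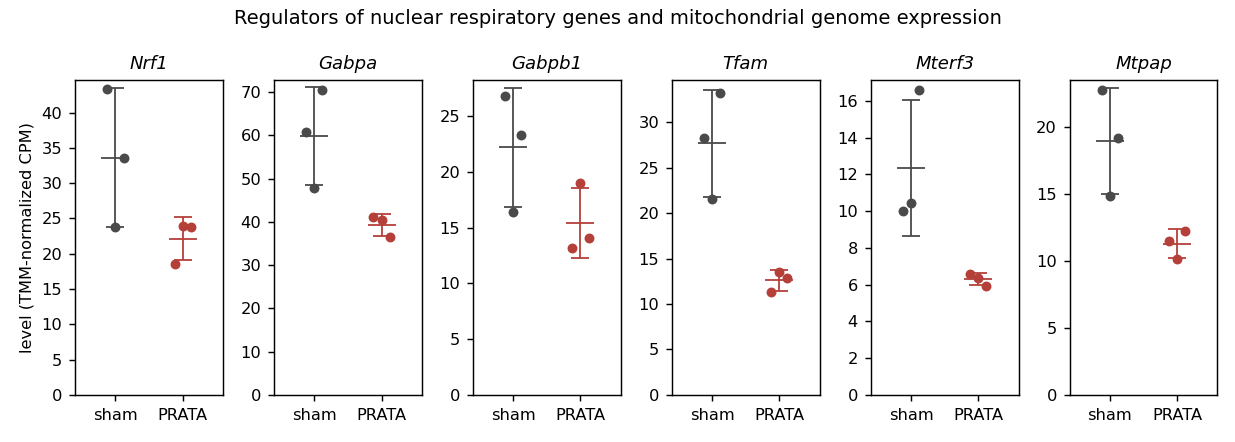
Levels of 3 regulators of nuclear respiratory genes (Nrf1, Gabpa, Gabpb1) and of 3 genes for mitochondrial genome expression (Tfam, Mterf3, Mtpap) in TMM-normalized CPM, with each point a sample and bars the mean and SD (n = 3). For Gabpa, Tfam, Mterf3 and Mtpap the PRATA points all lie below the sham points.

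These values stood beside the marker sums given above, where the neuron mean was higher and the satellite glial mean lower after PRATA, with overlapping groups. The part of the cell mixture in these values was not tested. Tfam did not follow the members sample by sample, since it was above every PRATA sample in sham replicate 1, where the members were lowest, and in sham replicate 2, where the members were high. Tfam and the satellite glial sum were both highest in sham replicate 3 and, within the sham group, lowest in sham replicate 2. Between sham replicate 2 and PRATA replicate 2 they differed, with Tfam at 21.5 and 13.5 CPM and that sum at 4616 and 6504 CPM. Without sham replicate 1 the log2 fold change of Tfam was -1.14, and within the 4 samples that did not stand apart by their 7SL copy it was -1.15, against 0.03 and 0.02 for the median of the members in the same settings. Transcripts of the mitochondrial genome itself were not analysed here.

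**Figure D5:**
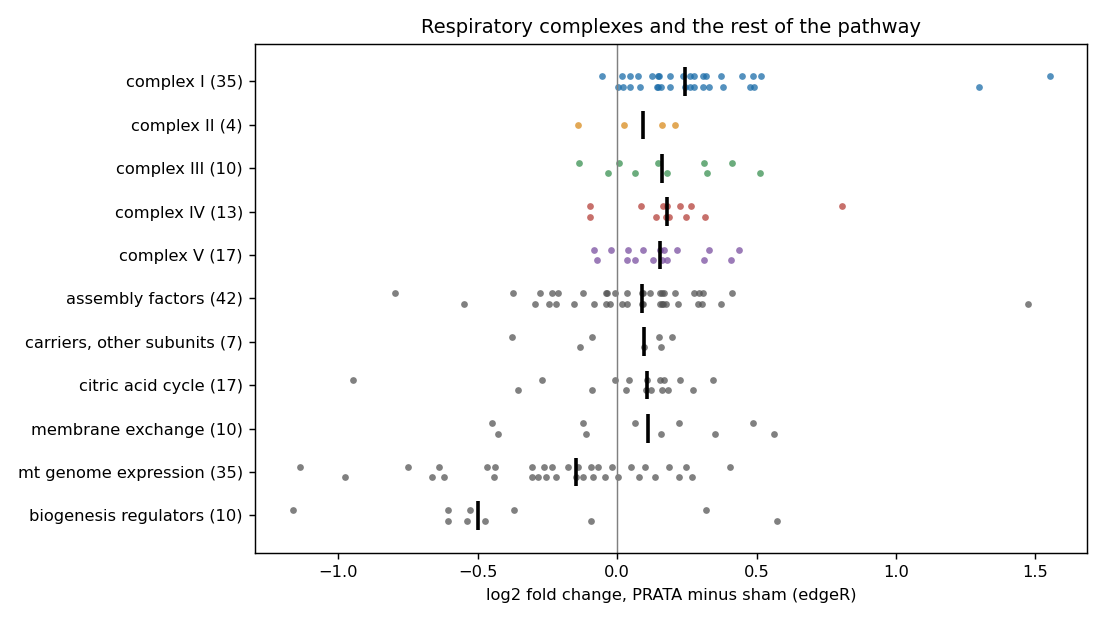
Log2 fold change (PRATA minus sham, edgeR) of the tested genes of complexes I to V and of 6 lists of the wider pathway, with each point a gene and each black bar the median of a group. The medians of the 5 complexes lie between 0.09 and 0.24, those of mitochondrial genome expression and of the biogenesis regulators at -0.15 and -0.50.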

How the data were processed

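RNA of 6 DRG neuron samples, 3 PRATA and 3 sham, was sequenced in pairs of reads from stranded, rRNA-depleted total RNA libraries. The authors deposited raw counts of reads per gene. The paper's methods name HISAT2, StringTie and Cuffdiff, while the submitters' processing notes name STAR 2.7.3a, RSEM and DESeq2, and the counting step, strand setting, genome build and treatment of reads with several matches are not given in the sources used here. All rows had a gene name, and all sample columns were used.

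The analysis used edgeR 4.0.16 in R 4.3.3 (filterByExpr, minimum count 10, minimum total 15, TMM, quasi-likelihood test without covariate), and DESeq2 1.42.0 and limma 3.58.1 were alternatives. The main edgeR fit alone was tried on simulated data, in which genes varied independently of each other. The alternatives were not tried on simulated data. Standard errors and 95% intervals were derived from the test statistic. Plots used matplotlib 3.10.9 under Python 3.11.15. The members and the 13 lists (205 genes, 196 matched by name) were chosen with earlier results of these data known. Lists were described by counts and medians, without a set test. Named genes were, per complex, the 3 smallest p, the extremes of log2 fold change and the highest level, all Sdh genes and paralog groups, and the 3 smallest p of each pathway list. A gene that this rule picks is not reported here. Named members that the filter removed are given as counts. RefSeq promoters were matched by symbol.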

Additional observations from a re-analysis of the deposited data

How the results depend on the processing

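With 18 alternatives run (2 normalizations, 2 filters, protein-coding genes alone, 4 other tests, each of the 6 samples left out, the replicate block and both treatments of the 7SL copy), no member had an adjusted p under 0.05 in any, and none was lower at an unadjusted p under 0.05. The alternatives fixed for genes of the mitochondrial genome, and for library sizes without them, were not run, because no such row was found. The cause of the changes listed here was not tested. The number of members higher at an unadjusted p under 0.05, 2 in edgeR, was 12 with voom quality weights, 0 with at least 10 counts in every sample, where fewer genes were tested, and 1 with DESeq2 size factors, library size alone, protein-coding genes alone, DESeq2, limma-trend, the robust fit, the replicate block and the larger 7SL copy group alone. With a sample left out it lay between 0 (without PRATA replicate 1, PRATA replicate 3 or sham replicate 3) and 14 (without sham replicate 2), and it was 5 without PRATA replicate 2. The number of positive members, 70, was 40 in the larger 7SL copy group alone and between 42 (without sham replicate 1) and 78 (without sham replicate 2) with a sample left out, and their median log2 fold change between 0.03 and 0.33. Over all genes, 0 passed the adjusted p in edgeR, against 662 with DESeq2, 1173 with voom and 13 in the larger 7SL copy group alone, and between 0 and 721 (without sham replicate 2) with a sample left out. At an unadjusted p under 0.05, 2734 genes passed in edgeR, 4606 with voom, 1528 with the replicate block and with a sample left out between 1406 (without PRATA replicate 1) and 4254 (without sham replicate 2). The groups share replicate numbers. Deviations of same-numbered samples over all genes tested correlated with r = -0.35, -0.05 and -0.35, so no sign of a pairing by number was seen. A shared effect smaller than the other differences between samples could be missed by this check. With the replicate block the median of the members was 0.20. The median of all genes was -0.17 without a filter and -0.18 in DESeq2, while the median of the members was 0.19 and 0.16 there.

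In the larger 7SL copy group alone, which holds 4 samples, the direction turned for the medians of complex II (-0.061), complex V (-0.050), the assembly factors (-0.12), the carriers and other subunits (-0.084), the citric acid cycle (-0.039) and membrane exchange (-0.11), and for Sdhb (-0.015), Uqcrc1 (-0.038), Cox6a1 (-0.073), Atp5f1b (-0.040), Sdhd (-0.11), Cox7b (-0.11), Atp5mc2 (-0.11), Ndufab1 (-0.084), Cox4i2 (0.16) and Cox4i1 (-0.075). Sdhd also turned with DESeq2 size factors (-0.0030), library size alone (-0.029) and protein-coding genes alone (-0.00087), and with voom Ndufa12 (0.016), Cox6c (0.0049) and Atp5mc3 (0.0049) turned. With a sample left out, the median lay between 0.07 and 0.42 for complex I, 0.08 and 0.33 for complex III and 0.04 and 0.36 for complex IV, and in the larger 7SL copy group alone it was 0.06, 0.02 and 0.06. With a sample left out, the log2 fold change spanned 0 for complex II (-0.12 to 0.20), complex V (-0.054 to 0.28), the assembly factors (-0.11 to 0.19), the carriers and other subunits (-0.10 to 0.22), the citric acid cycle (-0.040 to 0.24), membrane exchange (-0.076 to 0.28), Ndufa12 (-0.22 to 0.10), Sdhb (-0.0069 to 0.25), Uqcrb ENSRNOG00000032204 (-0.36 to 0.083), Cox6c (-0.36 to 0.093), Cox6a1 (-0.027 to 0.36), Atp5pd (-0.28 to 0.079), Sdhd (-0.23 to 0.17), Cox6b1 ENSRNOG00000024309 (-0.12 to 0.36), Cox7a1 (-0.041 to 0.49), Cox7a2l (-0.042 to 0.42), Cox7b (-0.17 to 0.29), Ndufa4 (-0.022 to 0.34), Atp5mc2 (-0.054 to 0.15), Atp5mc3 (-0.21 to 0.10), Cox4i2 (-0.64 to 0.038) and Cox4i1 (-0.056 to 0.32). Of the 49 named genes tested, 30 kept their direction in every setting. With DESeq2, Ndufaf4 and Tfam passed the adjusted p, with voom these and Suclg2, Gabpa, Mterf3 and Mtpap, and without sham replicate 2 Ndufaf4 and Tfam. Depth limited members of low level most, sham replicate 2 having the fewest counts.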
